A study of Homo sapiens with 4 samples.

Results

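The genes described here build the nuclear pore or carry cargo through it. They were taken from a table of transcript rows by symbol: names starting with NUP and a number, the exportins, importins, karyopherins, transportins and RANBP genes, and RAN, RANGAP1, CSE1L, NXF1 and NXT1. The rule found 58 of 16328 rows, which carry 56 gene symbols. Both RANBP3 rows held the same values and were merged, so 57 rows remained, of which 53 reached 1 RPM in at least 1 library and were tested.

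The rows were measured in Jurkat, an established human T cell leukemia line, grown in RPMI-1640 with fetal bovine serum. There was 1 library labelled Control and 3 labelled SLEAR shRNA, numbered 1 to 3. The SLEAR libraries came from cells transduced with lentivirus carrying hairpins against SLEAR in the pGreenPuro vector, with polybrene. The series' design text calls the Control a control shRNA. Whether the numbers stand for different hairpins or for repeats, whether the cultures were separate, and the time after transduction are not given in the sources used here. The p-values therefore reflect the spread between libraries, and that spread may be technical. SLEAR is not analysed here, and how far its RNA was reduced is unchecked. These are bulk samples, in which fewer cells of a type and less RNA per cell cannot be told apart. Libraries were made by MAPS, which reads the 3' ends of polyadenylated RNA, and values are RPM, reads scaled to the total of each library, as deposited.

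The nuclear pore is a ring of many copies of nucleoporins set in the nuclear envelope. An outer scaffold (the Y complex) and an inner ring hold a central channel lined with nucleoporins rich in phenylalanine-glycine repeats, and filaments and a basket extend to either side. Importins and exportins of the importin beta family bind cargo and pass the channel, and the small GTPase Ran, bound to GTP in the nucleus and to GDP in the cytoplasm, sets the direction. Most messenger RNA leaves by another route, with the NXF1-NXT1 receptor.

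One library stood apart before any gene was considered. SLEAR shRNA-3 had about 4814167 reads, estimated from the value of 1 read, against 7048623 to 8384894 in the other 3. It had 6941 rows at 0, against 2314 to 2984. Where both SLEAR shRNA-1 and -2 gave a row 8 to 16 RPM, SLEAR shRNA-3 listed it at 0 in 7.97% of cases, and where they gave 4 to 8 RPM in 24.8%. A 0 there is therefore weak evidence of absence. T cell markers were present in all 4 libraries: 11 of 12 T cell markers reached 1 RPM in at least 1 library, and CD3D was at 1580 RPM in Control versus 1590.02, 1679 and 1966 RPM in the SLEAR libraries. Some others were low in SLEAR shRNA-3: TCF7 was at 1490 RPM in Control versus 1471, 1321 and 354 RPM, TRAT1 at 44.5 RPM against 42.6, 32.4 and 8.72 RPM, and CD2 at 67.03 RPM against 82.7, 87.1 and 44.5 RPM. CD3E, CD247, LAT and ZAP70 were also lowest there, but nearer to Control. LCK and CD7 were highest there, at 753 RPM in Control versus 925, 884 and 1037 RPM and at 2.86 RPM against 8.51, 8.90 and 16.2 RPM. LEF1 was at 72.6 RPM against 61.4, 42.7 and 71.7 RPM. CD3G alone was near 0, at 0.239 RPM in Control versus 0 in the others. The summed T cell markers were at 5560 RPM in Control versus 5991, 5719 and 4864 RPM with SLEAR shRNA. The B cell markers reported here, CD79A and CD79B, summed to 12.0 RPM in Control versus 19.7 to 23.1 RPM with SLEAR shRNA, nearly all of it CD79A. Myeloid markers (3 of 5) summed to 1.91 RPM in Control versus at most 1.06 RPM with SLEAR shRNA, erythroid markers (2 of 5) to 0.119 RPM and at most 0.851 RPM, and fibroblast or epithelial markers (3 of 8) to 3.46 RPM and at most 3.72 RPM. ITGAM and KRT18 were at 0 everywhere.

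No pore or transport row passed the comparison of all 3 SLEAR shRNA libraries with Control. By limma-trend on log2(RPM + 1), 0 of 53 rows had an adjusted p under 0.05, as was so for 0 of 12350 rows (0%), and the smallest adjusted p among the members was 0.993. An unadjusted p under 0.05 was reached by 0 higher member rows and 1 lower one, RANBP9, and by 2.68% of all rows. The Control has no replicate. Its spread was taken from the SLEAR libraries, with 2 residual degrees of freedom, and SLEAR shRNA-3 often lay far from the others.

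In direction, 20 of the 53 rows lay below Control in all 3 SLEAR shRNA libraries and 5 lay above it, where the shares among all tested rows were 28.6% and 17.8%. The 20 rows are 37.7% of the members and the 5 rows are 9.43%. All of these counts share 1 Control value per row. The median log2 difference from Control over the members was -0.15, -0.23 and -0.41 in SLEAR shRNA-1, shRNA-2 and shRNA-3, beside -0.02, -0.04 and -0.23 over all tested rows. Of the fitted differences the median was -0.25 for the members and -0.11 for all rows. For rows whose mean log2 value was at least 4 these medians were -0.16 and -0.02.

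**Figure D1:**
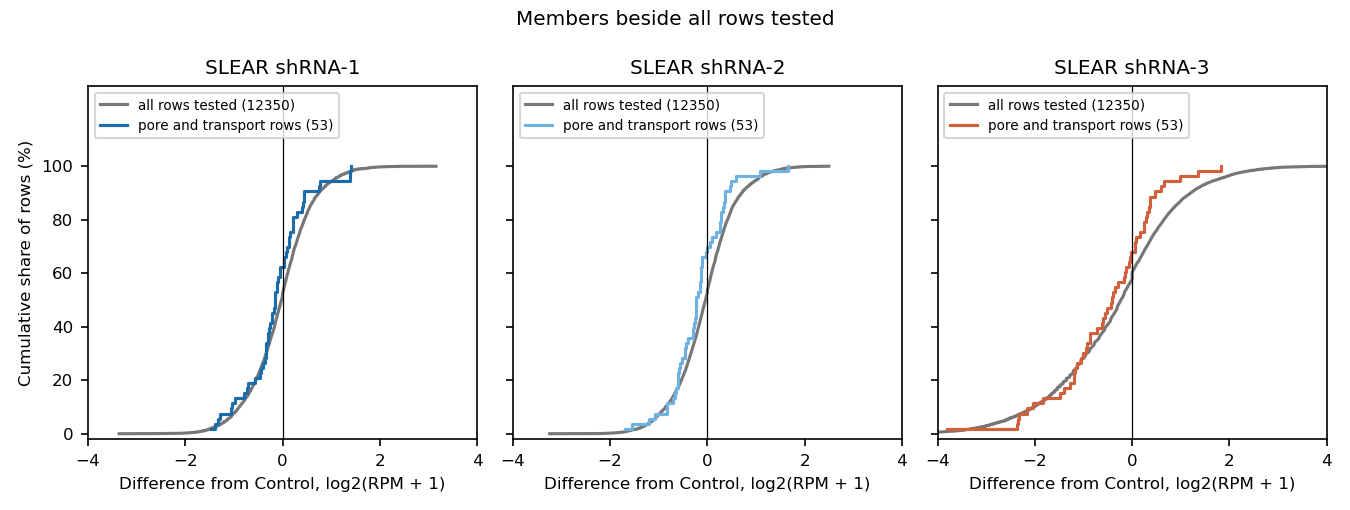
Cumulative share of rows (%) by their difference from Control in log2(RPM + 1), 1 panel per SLEAR shRNA library, for the 53 tested pore and transport rows (colour) and all 12350 tested rows (grey); in SLEAR shRNA-3 some of the grey curve lies outside the plotted range. The members' curve crosses the 50% level at -0.15, -0.23 and -0.41, left of the grey curve, and the spread is widest in SLEAR shRNA-3.

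For these genes SLEAR shRNA-3 often lay on another side of Control than SLEAR shRNA-1 and -2. Without SLEAR shRNA-3, 31 of 53 rows were below Control in both libraries and 15 above, where 41% and 35.2% of all rows were. The lowest value of the 4 libraries was that of SLEAR shRNA-3 for 28 of the 53 rows and the highest for 14, where the shares of all rows were 46% and 32%. For 10 rows (18.9%, where 17.4% of all rows did so) SLEAR shRNA-1 and -2 lay above Control and SLEAR shRNA-3 did not: RANBP1, RANBP3, NUP54, NUP62, NUP88, KPNA2, KPNA6, IPO5, NXT1 and NUP153. For 11 rows (20.8%, where 12.3% of all rows did so) SLEAR shRNA-1 and -2 lay below Control and SLEAR shRNA-3 did not: RAN, NUP107, NUP133, the NUP98 row of the longer precursor, XPO7, KPNA4, IPO13, IPO7, IPO9, NUP188 and NUP35.

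**Figure D2:**
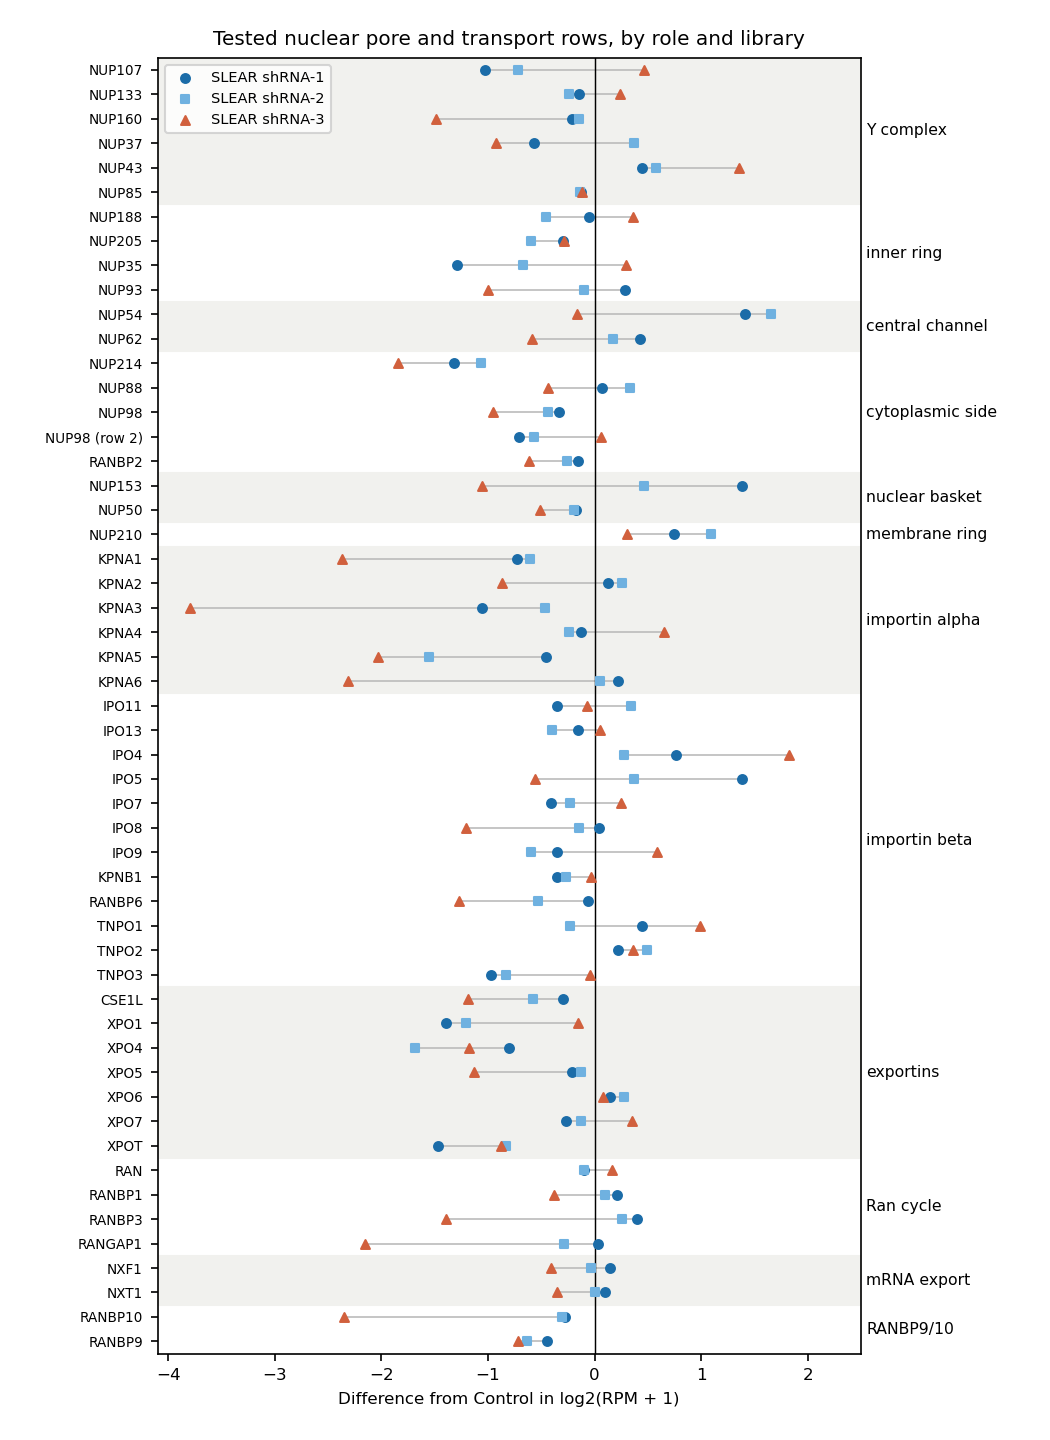
Difference from Control in log2(RPM + 1) for each of the 53 tested rows, grouped by role, with 1 point per SLEAR shRNA library (circle for shRNA-1, square for shRNA-2, triangle for shRNA-3) and a grey line over their range. Only NUP43, NUP210, IPO4, TNPO2 and XPO6 have all 3 points right of 0, and the triangle is often far from the other 2 points.

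With SLEAR shRNA-3 left out, and for rows whose mean log2 value was at least 4, 6 of 36 member rows passed by limma-trend, 5 lower and 1 higher. This is 16.7% of the members, where 14.4% of the 4851 rows passed, 7.26% lower and 7.11% higher, so the share of members that passed was near that of all rows. XPO1, TNPO3, NUP107, RANBP9 and KPNB1 fell and NUP210 rose. That fit had 1 residual degree of freedom per row and pooled the spread completely over rows. The mean log2 value that chose its rows was taken over all 4 libraries, SLEAR shRNA-3 included. A row low in Control could therefore enter through high SLEAR shRNA values, as NUP210 did. A row low with SLEAR shRNA could drop out: XPOT, at 20.6 RPM in Control, was left out with a mean log2 value of 3.64. The counts of higher and lower calls are not independent of that choice. Over all 12350 rows without SLEAR shRNA-3, 0 members and 0% of rows passed, and each of the 6 had an adjusted p of 0.368 by limma-trend (unadjusted p under 0.05, 775 rows higher and 893 lower). By limma-voom on estimated reads without that library, 2 members passed, XPO1 and TNPO3, both lower, where 0.413% of rows passed and 0.316% passed as lower.

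XPO1 (CRM1) is the main export receptor for proteins with a leucine-rich export signal, and also carries ribosomal subunits and some RNAs. It was at 78.7 RPM in Control versus 29.4, 33.5 and 70.6 RPM in SLEAR shRNA-1, shRNA-2 and shRNA-3. SLEAR shRNA-1 and -2 lay far below the other 2 libraries, and SLEAR shRNA-3 was close to Control. The log2 difference was -0.92 ± 0.57 (SE) with all libraries (limma-trend adjusted p = 0.993) and -1.30 ± 0.22 (SE) without SLEAR shRNA-3 (limma-trend adjusted p = 4.59e-07, for rows whose mean log2 value was at least 4). By limma-voom without SLEAR shRNA-3 the adjusted p was 0.0345. Errors and adjusted p given without SLEAR shRNA-3 for the genes that follow come from the same limma-trend fit, for rows whose mean log2 value was at least 4.

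TNPO3, a transportin that imports serine- and arginine-rich splicing factors, had the same shape. It was at 128 RPM in Control versus 64.7, 71.5 and 124 RPM. Again SLEAR shRNA-3 was close to Control, and the log2 difference was -0.61 ± 0.43 (SE) with all libraries (limma-trend adjusted p = 0.993) and -0.90 ± 0.18 (SE) without it (limma-trend adjusted p = 7.76e-05). NUP107, a core subunit of the Y complex, was at 58.4 RPM against 28.1, 35.2 and 81.2 RPM. Here SLEAR shRNA-3 was the highest of the 4 libraries, above Control, while SLEAR shRNA-1 and -2 were well below it. Its log2 difference was -0.43 ± 0.66 (SE) with all libraries (limma-trend adjusted p = 0.993) and -0.87 ± 0.22 (SE) without SLEAR shRNA-3 (limma-trend adjusted p = 0.00233), and -0.12 and -0.28 without SLEAR shRNA-1 or shRNA-2.

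KPNB1, importin beta, which carries classical import cargo together with importin alpha, was at 1811 RPM in Control versus 1418, 1506 and 1771 RPM with SLEAR shRNA. The difference was small, -0.31 ± 0.11 (SE) without SLEAR shRNA-3, and just inside the threshold (limma-trend adjusted p = 0.0498). With all libraries it was -0.22 ± 0.23 (SE; limma-trend adjusted p = 0.993). RANBP9, a scaffold protein of the CTLH ubiquitin ligase that shares only its name with the transport factors, was at 469 RPM against 344, 302 and 285 RPM. All 3 libraries lay below Control, with a log2 difference of -0.60 ± 0.20 (SE; limma-trend unadjusted p = 0.0336, adjusted p = 0.993), and of -0.54 ± 0.14 (SE) without SLEAR shRNA-3 (limma-trend adjusted p = 0.00266). NUP210, a membrane protein of the pore, was the 1 member that rose in the fit without SLEAR shRNA-3, from 12.3 RPM to 21.3 and 27.2 RPM, with 15.4 RPM in SLEAR shRNA-3. The log2 difference was 0.92 ± 0.29 (SE) in that fit (limma-trend adjusted p = 0.0190) and 0.71 ± 0.48 (SE) with all libraries (limma-trend adjusted p = 0.993). NUP210 had a mean log2 value of 4.27, but its Control value was under 4 on that scale. It entered the fit only through the SLEAR shRNA libraries, where it was higher, so this call is tied to the filter. RefSeq lists pseudogenes named after 15 of the member genes, and reads may be shared with them: KPNB1 has 1, TNPO3 2 and NUP210 3, and XPO1, NUP107 and RANBP9 have 0.

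**Figure D3:**
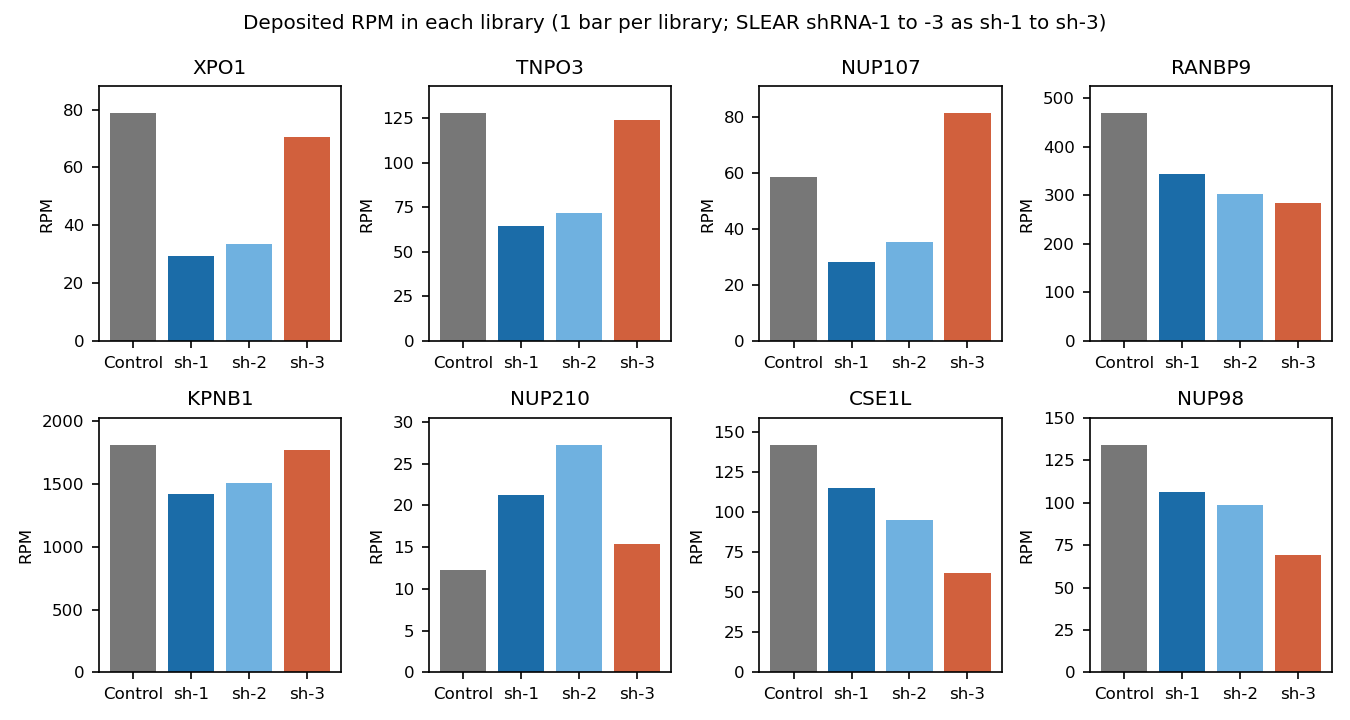
Deposited RPM of 8 members, 1 bar per library, on axes that start at 0. XPO1, TNPO3 and KPNB1 are low in SLEAR shRNA-1 and -2 (sh-1, sh-2) with SLEAR shRNA-3 (sh-3) near Control, NUP107 is highest in SLEAR shRNA-3, and RANBP9, CSE1L and NUP98 are lowest in SLEAR shRNA-3.

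The promoters of XPO1, TNPO3 and NUP107 are shown because, of the 5 members that fell without SLEAR shRNA-3 at a mean log2 value of at least 4, these had the largest differences. Each runs from 250 bases before to 50 after the start of the gene in RefSeq (build GRCh38.p14), 5′ to 3′ on the gene's strand. Capitals mark matches, on either strand, to an ETS motif (CCGGAAG), the core of the NRF1 motif (CGCATGCG), the CCAAT box (CCAAT) and the GC box (GGGCGG). No matches overlapped each other in these promoters. XPO1 lies at chr2:61538307-61538606 on the minus strand, TNPO3 at chr7:129055062-129055361 on the minus strand and NUP107 at chr12:68686728-68687027 on the plus strand.
XPO1: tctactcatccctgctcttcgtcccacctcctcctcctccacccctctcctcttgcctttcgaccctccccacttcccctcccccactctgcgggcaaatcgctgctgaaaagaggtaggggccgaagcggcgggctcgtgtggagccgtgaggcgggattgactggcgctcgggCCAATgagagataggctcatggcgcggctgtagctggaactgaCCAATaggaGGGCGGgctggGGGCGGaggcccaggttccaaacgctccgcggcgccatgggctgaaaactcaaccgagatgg
TNPO3: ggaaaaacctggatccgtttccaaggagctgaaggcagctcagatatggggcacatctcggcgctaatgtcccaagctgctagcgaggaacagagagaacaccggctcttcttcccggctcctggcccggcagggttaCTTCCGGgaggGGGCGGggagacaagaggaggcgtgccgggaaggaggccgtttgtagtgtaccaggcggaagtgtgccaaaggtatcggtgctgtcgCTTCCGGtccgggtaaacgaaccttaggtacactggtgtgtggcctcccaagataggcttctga
NUP107: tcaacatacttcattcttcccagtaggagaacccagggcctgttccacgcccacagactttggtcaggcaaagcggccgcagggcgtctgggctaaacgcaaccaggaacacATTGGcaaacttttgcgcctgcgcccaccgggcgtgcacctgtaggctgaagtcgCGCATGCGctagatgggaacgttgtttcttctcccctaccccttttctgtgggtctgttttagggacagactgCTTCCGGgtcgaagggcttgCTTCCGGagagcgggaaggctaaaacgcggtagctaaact

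The 3 sequences had no motif of the 4 in common. XPO1 held 2 CCAAT boxes and 2 GC boxes, TNPO3 2 ETS motifs and 1 GC box, and NUP107 2 ETS motifs, 1 NRF1 core and 1 CCAAT box. A promoter was found for 46 of the 52 tested member genes. The ETS motif was in 13 of these (28.3%), where 10.7% of all 27305 promoters and 19.5% of the 8719 promoters of tested genes held it. The NRF1 core was in 5 (10.9%), where the shares were 2.19% and 3.89%. The CCAAT box was in 22 (47.8%), where they were 35.7% and 36.8%, and the GC box in 28 (60.9%), where they were 44.6% and 69.8%. These are matches of letters in a window, and binding was not measured.

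None of the 7 exportin rows passed with all libraries. Of the 7, 5 lay below Control in all 3 SLEAR shRNA libraries and 1, XPO6, above it. These are 71.4% and 14.3%, where 28.6% and 17.8% of all tested rows did so. CSE1L, which returns importin alpha to the cytoplasm, was at 142 RPM in Control versus 115, 94.9 and 61.7 RPM, a log2 difference of -0.69 ± 0.40 (SE; limma-trend adjusted p = 0.993). All 3 SLEAR libraries were below Control and SLEAR shRNA-3 was lowest. Without SLEAR shRNA-3 the difference was -0.44 ± 0.17 (SE; limma-trend adjusted p = 0.0662). XPOT, the export receptor for transfer RNA, was at 20.6 RPM against 6.81, 11.2 and 10.8 RPM, and has 3 named pseudogenes that may share its reads. XPO5, which exports microRNA precursors, was at 103 RPM against 88.8, 94.0 and 46.5 RPM, so that most of its difference lay in SLEAR shRNA-3. XPO4, at low values, was at 6.92 RPM against 3.55, 1.46 and 2.49 RPM. The other 2 exportins went otherwise: XPO6, the export receptor of actin-profilin, was at 115 RPM against 128, 140.1 and 122 RPM, and XPO7 at 181 RPM against 151, 166 and 231 RPM.

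Among the importin beta family, 3 of 12 tested rows were below Control in all 3 libraries (KPNB1, TNPO3 and RANBP6) and 2 above (IPO4 and TNPO2). These are 25% and 16.7%, near the shares of all tested rows, 28.6% and 17.8%. IPO4, an importer of histones and ribosomal proteins, was at 14.9 RPM in Control versus 26.1, 18.2 and 55.3 RPM. SLEAR shRNA-3 was far the highest, and the log2 difference was 0.95 ± 0.69 (SE; limma-trend adjusted p = 0.993) and 0.52 ± 0.29 (SE; adjusted p = 0.229) without that library. TNPO2, a transportin close to TNPO1, was at 19.3 RPM against 22.7, 27.6 and 25.1 RPM, a log2 difference of 0.36 ± 0.34 (SE; limma-trend adjusted p = 0.993). TNPO1, the import receptor for HNRNPA1 and related proteins, was at 12.2 RPM against 16.9, 10.2 and 25.1 RPM, on both sides of Control. IPO5 was at 5.96 RPM against 17.2, 7.97 and 3.74 RPM, IPO7 at 22.9 RPM against 17.0, 19.4 and 27.4 RPM, and IPO8 at 72.99 RPM against 75.1, 65.8 and 31.2 RPM. The SLEAR libraries did not share a direction for these 3. IPO9 was at 14.2 RPM against 10.9, 9.04 and 21.8 RPM, IPO13 at 69.5 RPM against 62.3, 52.6 and 72.3 RPM, and IPO11, whose row is shared with the readthrough IPO11-LRRC70, at 9.66 RPM against 7.38, 12.5 and 9.14 RPM. RANBP6, a relative of IPO5, was at 10.97 RPM against 10.5, 7.31 and 3.95 RPM.

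Importin alpha proteins are the adaptors that recognise the classical nuclear localisation signal. Of their 6 tested rows, 3 were below Control in all 3 SLEAR libraries, all at low values: KPNA1, at 4.17 RPM against 2.13, 2.39 and 0 RPM, KPNA3, at 12.9 RPM against 5.67, 9.04 and 0 RPM, and KPNA5, at 3.10 RPM against 1.99, 0.399 and 0 RPM. SLEAR shRNA-3 listed each of these at 0, which is weak evidence. The 3 rows are 50% of the 6, where 28.6% of all tested rows lay below Control throughout. KPNA2, the adaptor typical of dividing cells, was at 489 RPM in Control versus 533, 584 and 268 RPM. SLEAR shRNA-1 and -2 were above Control and SLEAR shRNA-3 well below. KPNA2 has 3 named pseudogenes. KPNA6 was at 14.3 RPM against 16.9, 14.9 and 2.08 RPM, and KPNA4 at 5.96 RPM against 5.39, 4.92 and 9.97 RPM. KPNA7 was not tested, with 0.266 RPM in SLEAR shRNA-2 and 0 in the other libraries.

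In the scaffold, the Y complex had 2 of 6 rows below Control in all 3 libraries and 1 above. These are 33.3% and 16.7%, near the shares of all tested rows, 28.6% and 17.8%. NUP85 was at 322 RPM against 296, 293 and 297 RPM, a narrow and even difference of -0.13 ± 0.17 (SE). NUP160 was at 49.0 RPM against 42.3, 44.3 and 16.8 RPM, most of it in SLEAR shRNA-3. NUP43 was above Control in each, at 19.7 RPM against 27.2, 29.9 and 51.9 RPM, a log2 difference of 0.80 ± 0.48 (SE; limma-trend adjusted p = 0.993) and of 0.51 ± 0.26 (SE; adjusted p = 0.172) without SLEAR shRNA-3. NUP133 was at 156 RPM against 140.5, 132 and 184 RPM and NUP37 at 26.5 RPM against 17.6, 34.6 and 13.5 RPM, with values on both sides of Control. Of the inner ring, which anchors the channel, NUP205 was at 52.5 RPM against 42.6, 34.3 and 42.8 RPM. It was the 1 of 4 tested rows (25%) below Control throughout. NUP188 was at 43.8 RPM against 42.1, 31.6 and 56.5 RPM, NUP93 at 140 RPM against 171, 130.1 and 69.2 RPM, and NUP35 at 19.8 RPM against 7.52, 12.1 and 24.5 RPM. NUP155, at no more than 0.532 RPM in any library, was not tested.

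The rows of the channel and of the faces of the pore lay on both sides of Control. NUP62, the central channel nucleoporin, was at 73.9 RPM in Control versus 99.9, 83.3 and 48.8 RPM, and NUP54, its partner, was at 0.119 RPM against 1.99, 2.53 and 0 RPM. Its Control and SLEAR shRNA-3 values lay under the level of 3 reads, which is 0.358 and 0.623 RPM there, and those of SLEAR shRNA-1 and -2 above it (0.426 and 0.399 RPM). NUP54 was the 1 member row that reached 1 RPM only with SLEAR shRNA. On the cytoplasmic side, NUP214, the platform for messenger RNA export factors, was at 10.0 RPM against 3.405, 4.25 and 2.08 RPM, below Control in each. Its log2 difference was -1.41 ± 0.75 (SE; limma-trend adjusted p = 0.993). NUP88, which binds NUP214, was at 47.0 RPM against 49.2, 59.4 and 34.5 RPM. RANBP2, the large cytoplasmic filament protein with SUMO ligase activity, was at 22.5 RPM against 20.1, 18.7 and 14.3 RPM, a log2 difference of -0.34 ± 0.41 (SE; limma-trend adjusted p = 0.993) and of -0.20 ± 0.29 (SE; adjusted p = 0.683) without SLEAR shRNA-3. In the basket, NUP50, a cofactor of import, was at 1775 RPM against 1576, 1557 and 1246 RPM, lower in each library, with 4 named pseudogenes. NUP153, another basket nucleoporin, was at 1.07 RPM against 4.40, 1.86 and 0 RPM.

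NUP98 was measured in 2 rows that list different transcripts. The first lists transcripts whose coding sequence is 2760 and 2811 bases in GENCODE 29, which encode NUP98 alone, and the second lists those of 5178 and 5400 bases, which encode the longer precursor that is cut into NUP98 and NUP96, a Y complex subunit. The short form was at 134 RPM in Control versus 106, 98.9 and 69.0 RPM with SLEAR shRNA, below Control in each. Its log2 difference was -0.57 ± 0.32 (SE; limma-trend adjusted p = 0.993). The long form was at 10.1 RPM against 5.82, 6.51 and 10.6 RPM, so SLEAR shRNA-1 and -2 were below Control for both rows and SLEAR shRNA-3 only for the first. Its log2 difference was -0.41 ± 0.65 (SE).

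The Ran cycle had 0 of 4 rows with 1 direction in all 3 libraries, where 28.6% of all tested rows lay below Control throughout and 17.8% above. RAN, the GTPase, was at 92.3 RPM in Control versus 86.3, 85.9 and 104 RPM, a log2 difference of -0.01 ± 0.23 (SE; limma-trend adjusted p = 0.998), and has 9 named pseudogenes. RANBP1, which helps release Ran from receptors, was at 43.9 RPM against 50.9, 47.2 and 33.4 RPM. RANBP3, a cofactor of XPO1, was at 60.9 RPM against 80.5, 73.2 and 22.5 RPM. RANGAP1, the GTPase activator on the cytoplasmic filaments, was at 3.46 RPM against 3.55, 2.66 and 0 RPM, a log2 difference of -0.80 ± 1.13 (SE; limma-trend adjusted p = 0.993) that was -0.13 without SLEAR shRNA-3 and -1.22 without SLEAR shRNA-1. The messenger RNA export receptor lay on both sides of Control: NXF1 was at 257 RPM against 285, 252 and 194 RPM, a log2 difference of -0.10 ± 0.28 (SE; limma-trend adjusted p = 0.993) that turned to 0.06 ± 0.15 (SE) without SLEAR shRNA-3, and its partner NXT1 at 92.3 RPM against 98.9, 92.5 and 72.3 RPM. RANBP10, a relative of RANBP9, was at 53.0 RPM against 43.6, 42.8 and 9.56 RPM. NUP50-AS1, an antisense RNA, and NUP62CL were not tested, with at most 0.142 and 0.415 RPM in any library. Whether the counting used strand is not stated in the labels.

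Pathway genes that the rule left out were counted from lists of nucleoporins, Ran regulators, messenger RNA export factors and lamina genes. In each list 0 rows passed with all libraries by limma-trend. Of all tested rows, 17.8% lay above and 28.6% below Control in all 3 libraries. Calls named below come from the fit without SLEAR shRNA-3 for rows whose mean log2 value was at least 4, in which 7.11% of all rows were higher and 7.26% lower. Over all rows without that library, 0 rows passed by limma-trend, and by limma-voom 0 rows of these lists passed. Of the 12 tested rows of other nucleoporins, 3 (25%) were above and 2 (16.7%) below Control in all 3 libraries, and 0 of 9 passed without SLEAR shRNA-3. AAAS was at 57.5 RPM in Control versus 82.6, 80.3 and 73.7 RPM, while NUPL2, of the cytoplasmic side, was at 10.97 RPM against 3.97, 5.45 and 2.08 RPM. TPR, of the basket, was at no more than 0.568 RPM. Of 8 tested rows of other Ran regulators and adaptors, 1 (12.5%) was above and 4 (50%) below, and 1 of the 5 in that fit passed. It was RANGRF, a Ran-binding protein, which rose without SLEAR shRNA-3, with 514 RPM in Control versus 658, 660.05 and 589 RPM (limma-trend adjusted p = 0.0437).

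Of 23 tested rows of messenger RNA export factors, 6 (26.1%) were above and 7 (30.4%) below Control in all 3 libraries, where 17.8% and 28.6% of all tested rows were. Of the 20 in the fit without SLEAR shRNA-3, 3 rose and 2 fell. NCBP1, the large subunit of the cap-binding complex, was at 53.2 RPM in Control versus 92.9, 86.1 and 83.1 RPM, higher in each, while its partner NCBP2 was at 88.1 RPM against 54.6, 62.7 and 70.6 RPM, lower in each. Both passed without SLEAR shRNA-3 (limma-trend adjusted p = 0.00214 and 0.0241) and neither with all libraries (adjusted p = 0.993). THOC1, of the THO complex, was at 141 RPM against 97.7, 72.8 and 92.2 RPM, and fell without SLEAR shRNA-3 (limma-trend adjusted p = 0.00105). SARNP, at 12.2 RPM against 21.6, 23.9 and 29.5 RPM in its main row, and THOC5, at 21.6 RPM against 40.9, 35.9 and 21.0 RPM, were the other 2 that rose in that fit. The Control value of SARNP was under 4 on the log2 scale. It entered the fit only through the SLEAR shRNA libraries, where it was higher, so its call is tied to the filter. Of 13 tested rows of lamina and inner membrane genes, 3 (23.1%) were above and 5 (38.5%) below in all 3 libraries. LBR and BANF1, 2 of the 8 in that fit, fell. BANF1, which binds DNA and inner membrane proteins, was at 152 RPM in Control versus 111, 108 and 164 RPM, so that SLEAR shRNA-3 lay above Control. LBR, the lamin B receptor, was at 190.1 RPM against 152, 120.3 and 115 RPM.

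The members' transcripts were longer and poorer in GC than those of tested rows as a whole. Their median length was 4269 nucleotides, beside 2598 for all rows, and their median GC content 44.7%, beside 50.4%, from GENCODE 29 transcripts matched by accession for 53 of 53 member rows and 96.6% of all rows. Across the 53 members, Spearman's rho between GC content and the difference from Control was 0.41, 0.29 and 0.04 in SLEAR shRNA-1, shRNA-2 and shRNA-3, beside 0.19, 0.18 and 0.23 across all rows. For length it was -0.22, -0.30 and 0.11, beside -0.12, -0.17 and -0.08. The points are genes of the same libraries and are not independent replicates, and the 3 values of each row share 1 Control. The part of length or GC content in the members' differences was not tested.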

How the data were processed

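RNA from Jurkat cells was measured in 4 libraries. The authors deposited values in RPM, reads scaled to each library's total, and per the submitters' processing notes FastQC, Bowtie2 and SAMtools were used with hg19 (no versions listed). The assignment of reads to rows is not given in the sources used. The columns summed to 85.3% to 89.5% of the total that the unit implies. Depth was estimated from the value of 1 read: 96.4% to 96.8% of values above 0 were whole multiples within 0.05 reads, but 5 to 27 rows lay below 1 read, so the values were not treated as counts.

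Rows that agreed exactly in all 4 libraries were merged where their mean reached 1 RPM, leaving 16151 rows. SLEAR shRNA was compared with Control by limma-trend (limma 3.58.1, R 4.3.3) on log2(RPM + 1), a scale that understates changes of low rows, over the 12350 rows that reached 1 RPM in some library. The p-values were adjusted by Benjamini-Hochberg over those rows, and 0.05 was the threshold. The script was tested on simulated reads with the same spread in every library. That test does not cover a library that stands apart as SLEAR shRNA-3 does. Given in full are members that passed with all libraries, or without SLEAR shRNA-3 at a mean log2 value of at least 4; the 4 with the smallest p in each direction at that level; and XPO1, KPNB1, CSE1L, RAN, RANGAP1, RANBP2, NXF1 and NUP98. A log2 difference and its SE are also printed for NUP85, NUP214 and the second NUP98 row, which meet none of these rules. The members, lists and alternatives were chosen with earlier results of these data known. A floor of 3 reads and all other limits from depth cover counting error only. Promoter sequences are from RefSeq (GRCh38.p14); no other coordinates are given, because the files use hg19.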

Additional observations from a re-analysis of the deposited data

How the results depend on the processing

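No paired analysis was possible because there is a single Control library. With other pseudocounts (0.1 and 5), median-ratio size factors, no filter, array weights, limma-voom on estimated reads or summed rows of a symbol, 0 members passed and 5 were above Control in all SLEAR shRNA libraries. Below Control in all of them were 20 members under each, except 23 with limma-voom. In the main comparison 28.6% of all tested rows lay below and 17.8% above. Over all rows the calls were 0 higher and 0 lower with all libraries under each of these, except without a filter, where 1 was higher and 376 lower. Restricted to a mean log2 value of at least 4, 13 of 36 members (36.1%) were below Control throughout, against 25.6% of all such rows. Leaving out 1 SLEAR shRNA library at a time gave 0 calls, 5 to 15 members above and 22 to 31 below Control. The highest of these counts, 15 and 31, were those without SLEAR shRNA-3, where 35.2% of all rows lay above and 41% below. Without SLEAR shRNA-3, 6 members passed at a mean log2 value of at least 4. There 11 (30.6%) lay above and 20 (55.6%) below Control, against 40.9% and 39.9% of all such rows. With limma-voom without that library 2 passed, with 13 above and 33 below. Shares of all rows above or below Control were not computed for either limma-voom fit, for the other alternatives named first, or without SLEAR shRNA-1 or -2. Of the 15 genes given in full, NXF1, at -0.10 with all libraries, turned to 0.021 with array weights, 0.060 without SLEAR shRNA-3 with either filter, and 0.00078 with limma-voom without it; leaving out 1 library gave -0.22 to 0.060. RAN, at -0.012, turned to 0.031 without SLEAR shRNA-1 and 0.034 without SLEAR shRNA-2; leaving out 1 library gave -0.10 to 0.034. The cause was not tested. All 13 others kept their direction under each alternative that could be fitted for them. A value at 0 in SLEAR shRNA-3, where 1 read was about 0.208 RPM, is weak evidence of absence. Why rows were at 0 there was not tested.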
